A study of Mus musculus with 4 samples.

Results

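The proteasome genes examined here were the rows whose symbol is Psm followed by a letter from a to g and a number, without the inducible catalytic subunits Psmb8, Psmb9 and Psmb10. This rule, which uses names alone, found 45 genes among the 33641 gene symbols measured. By role they comprised 8 genes of the alpha rings and 8 of the beta rings of the 20S core, 6 ATPases and 11 further subunits of the 19S cap, 3 chaperones of cap assembly, 4 chaperones of core assembly, and 5 genes for activators and the regulator Psmf1. The working name of the group, constitutive proteasome subunits, covers most but not all of them. Psma8 is known from spermatocytes and Psmb11 from the thymus, Psme1 and Psme2 are genes that interferon induces, and the chaperones leave the complex once it is built.

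The libraries came from primary cardiac fibroblasts of wild-type C57BL/6J mice, 12 weeks old. A TGFbeta group (10 ng/ml, 2 libraries) was set against a vehicle group (2 libraries). All 4 samples took up 4-thiouridine, a uridine analogue labelled as 0.1 M, at 20 and 4 h before crosslinking with 368 nm light. The series describes RNA eluted from the RNA-binding protein HuR, whereas the sample labels describe total RNA, so a level below is a level in these libraries and may be either. Nothing in the labels tells if replicates are different animals or cultures, and p-values measure only the spread between these libraries. Levels are TPM, a share of transcripts that is scaled per length and to the same fixed total in each library, so read depth is unknown. In these bulk samples fewer cells of a type and less RNA per cell cannot be told apart. Fibroblast markers were present in every library: 10 of 10 had a mean TPM of at least 1, and together they held 20812 and 19749 TPM with TGFbeta, against 23698 and 20055 TPM with vehicle. Single markers differed in direction, with 7 of the 10 lower and 3 higher with TGFbeta in the fit described below. Pdgfra had 55.5 and 57.8 TPM with TGFbeta, against 169 and 139 TPM with vehicle. Tcf21 had 283 and 255 TPM with TGFbeta, against 600 and 564 TPM with vehicle. Col1a1 had 6221 and 4272 TPM with TGFbeta, against 3148 and 2392 TPM with vehicle. Postn, a myofibroblast matrix gene, had 984 and 1326 TPM with TGFbeta, against 222 and 177 TPM with vehicle.

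The proteasome degrades proteins that carry ubiquitin chains. Its 20S core is a barrel of 4 stacked rings, in which outer alpha rings gate the entry and inner beta rings hold the proteolytic sites. A 19S cap recognises, unfolds and threads in the substrate with a ring of ATPases. Cap and core together form the 26S proteasome, and other activators, such as the PA28 rings, can take the place of the cap. Because each subunit occupies a fixed place, the genes are known to be expressed in a coordinated way, and the transcription factor Nfe2l1 raises them together when proteasome activity falls short.

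None of the genes passed the test between TGFbeta and vehicle. Of the 44 genes tested (mean TPM of at least 1), limma called 0 higher and 0 lower with TGFbeta at an adjusted p under 0.05, and 5 had an unadjusted p under 0.05. Over all 15815 tested genes 1.54% were called higher, 4.38% lower, and 24.5% had an unadjusted p under 0.05. In the TPM as deposited 32 of 44 (72.7%) had an absolute log2 change under 0.25, against 49.0% of all tested genes, and all 44 lay under 1. This share depended on scaling: it was 43.2% (51.1% of all tested genes) after median scaling, 54.5% (51.5%) after quantile normalization and 65.9% (51.3%) with protein-coding genes alone. The share within 0.25 of the genes' own median was counted too. Median scaling cannot change it, because it shifts every log2 change by the same amount. Rescaling to protein-coding genes shifts them almost equally, so only quantile normalization could move this share much. It was 84.1% for the proteasome genes in the deposited values, after median scaling and with protein-coding genes alone. After quantile normalization it was 81.8%. Of all tested genes 51.8% to 52.6% lay this close to their median. This background was not matched for level. The median TPM of the proteasome genes was 105 and 135 with TGFbeta, against 115 and 104 with vehicle. Over all tested genes it was 14.7 and 15.0 with TGFbeta, against 17.3 and 16.0 with vehicle. Small changes were found in other complexes too. Log2 changes ran from -0.27 to 0.11 for COP9 signalosome genes and from -0.035 to 0.311 for CCT chaperonin genes. For eIF3 genes they ran from -0.16 to 1.10. Fitted changes of the proteasome genes were positive for 35 and negative for 9. Their median log2 change was 0.10, while the median of all tested genes was -0.13. With 4 libraries a single value has 6 arrangements and a two-sided exact permutation p no smaller than 0.333, so none is given.

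**Figure D1:**
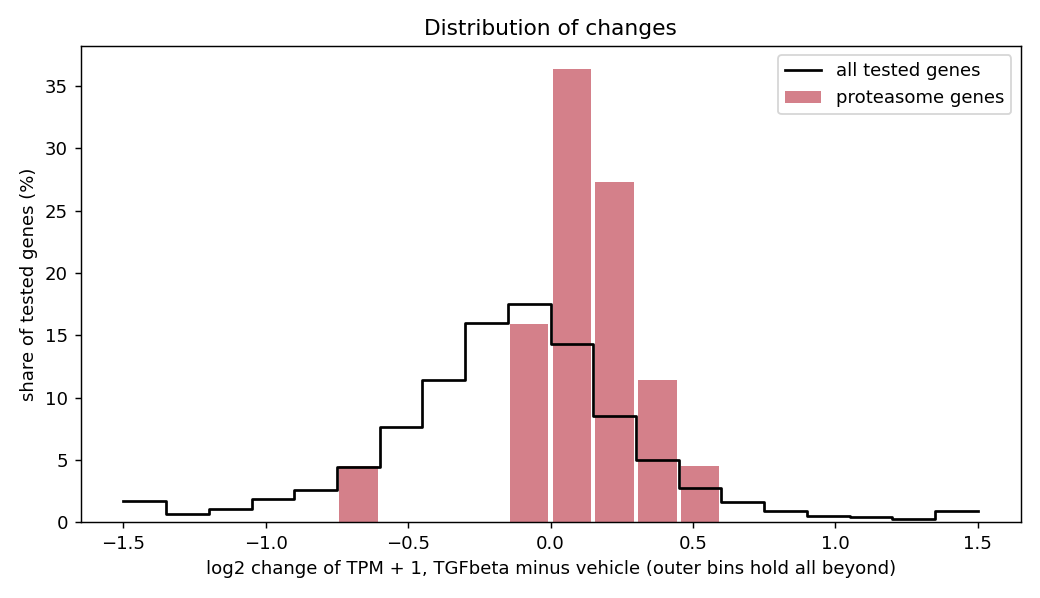
Share of genes in each bin of log2 change (TGFbeta minus vehicle, log2 of TPM + 1), as bars for the 44 tested proteasome genes and as a line for all 15815 tested genes. The bars sit mostly from -0.15 to 0.6, to the right of the peak of the line, with a separate bar that holds Psme1 and Psme2.

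The size of this positive median moved with single libraries. The summed level of all 45 genes was 4907 TPM in TGFbeta 1 and 5669 TPM in TGFbeta 2, against 5077 TPM in vehicle 1 and 4797 TPM in vehicle 2. TGFbeta 1 thus lay between the vehicle libraries and TGFbeta 2 above all others. Of the 44 tested genes 39 were higher in TGFbeta 2 than in TGFbeta 1 (88.6%, against 53.5% of all tested genes), and 33 had their highest value of the 4 libraries in TGFbeta 2 (75.0%, against 21.7%). Other complexes of fixed subunits had high shares too: of the CCT chaperonin genes 7 of 7 were higher in TGFbeta 2 than in TGFbeta 1 and 71.4% had their highest value there, and of the eIF3 genes 71.4% and 57.1%. The median log2 difference of TGFbeta 2 over TGFbeta 1 was 0.23 for the proteasome genes and 0.025 for all tested genes. Between the vehicle libraries, 36 of the 44 proteasome genes were higher in vehicle 1 (81.8%, against 58.7% of all tested genes), with a median log2 difference of 0.11 (0.059 for all tested genes). Without TGFbeta 2 the median log2 change of the proteasome genes came to 0.028, without vehicle 2 to 0.067, without TGFbeta 1 to 0.21 and without vehicle 1 to 0.18. Protein-coding genes took 87.0% of all TPM in TGFbeta 1, 90.5% in TGFbeta 2, 91.2% in vehicle 1 and 90.1% in vehicle 2. Rescaled to protein-coding genes alone, the median log2 change of the proteasome genes was 0.135, and after median scaling of all genes it was 0.258. The part of library composition in it was not tested.

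Both TGFbeta libraries lay above both vehicle libraries for 16 of the 44 genes (36.4%, against 15.5% of all tested genes), and below both for 3 (6.82%, against 39.8%). These counts moved with scaling. After median scaling, under which the all-gene median log2 change was 0.027, 35 proteasome genes lay above and 2 below, against 29.3% and 24.7% of all tested genes. Quantile normalization gave 28 above and 2 below (27.9% and 26.5% of all tested genes). The 2 genes below under every scaling tried were Psme1 and Psme2.

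**Figure D2:**
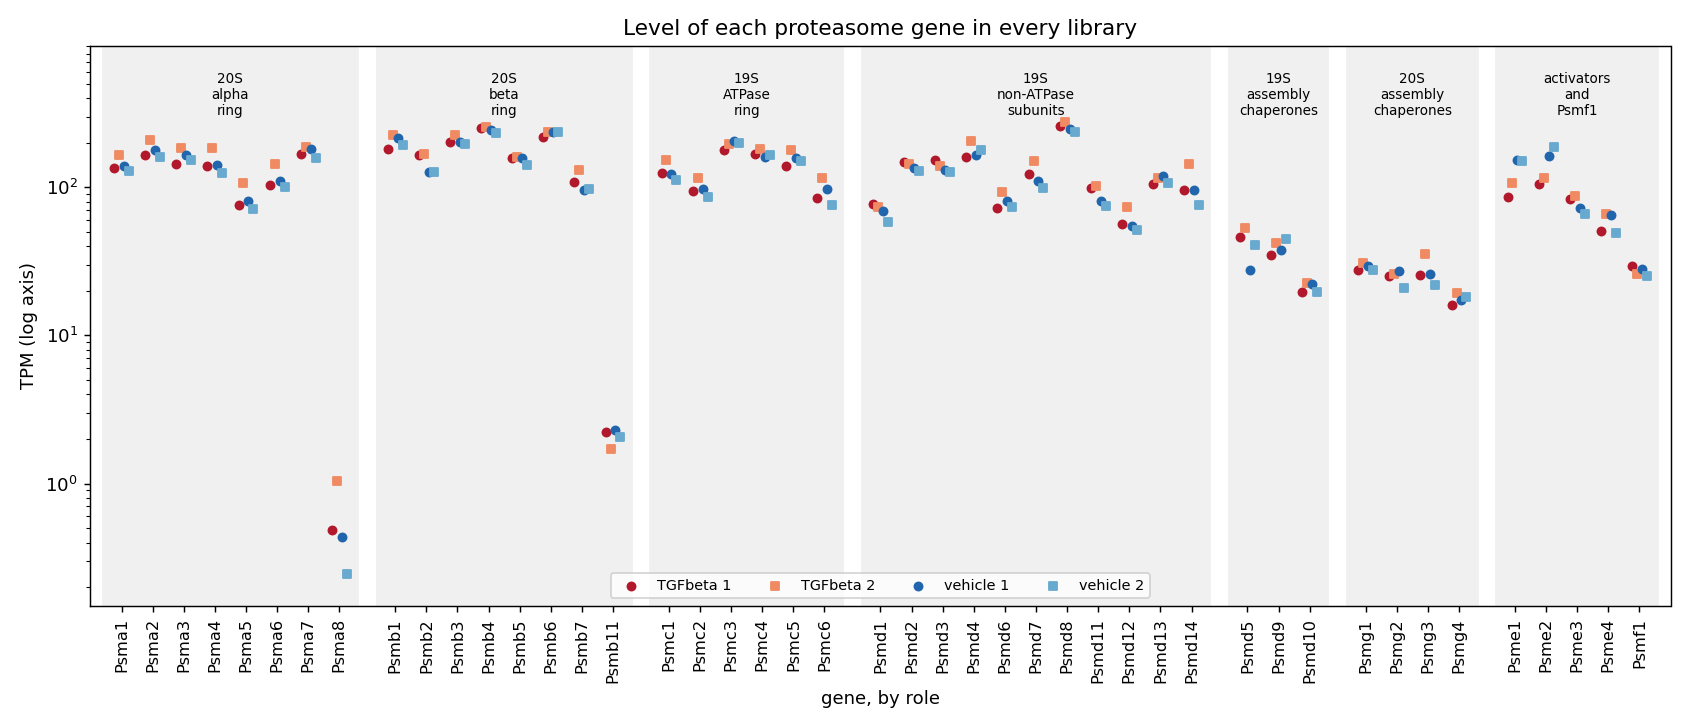
TPM on a log axis for each of the 45 genes, grouped by role, with 1 point for each library (red shades TGFbeta, blue shades vehicle). Core and cap subunits form a band, for the most part above the assembly chaperones, from 51.7 TPM (Psmd12) to 276 TPM (Psmd8), while Psma8 and Psmb11 lie at 2.28 TPM or less.

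The alpha ring genes Psma1 to Psma7, whose products form the gated ends of the core, were all measured at similar levels. Their lowest and highest values in a library were 76.4 TPM (Psma5) and 167 TPM (Psma7) in TGFbeta 1, and 106 TPM (Psma5) and 209 TPM (Psma2) in TGFbeta 2. In vehicle 1 the ends were 80.5 TPM (Psma5) and 181 TPM (Psma7), and in vehicle 2 they were 71.8 TPM (Psma5) and 161 TPM (Psma2). Psma5 was thus the lowest of the 7 in every library. Psma4 had 140 and 184 TPM with TGFbeta, against 142 and 124 TPM with vehicle, a log2 change of 0.27 (SE 0.17, limma adjusted p = 0.394) that ran from 0.08 without TGFbeta 2 to 0.47 without TGFbeta 1. Psma3, at the other end, had 144 and 184 TPM with TGFbeta, against 165 and 153 TPM with vehicle (log2 change 0.04, SE 0.16, limma adjusted p = 0.918). In both cases TGFbeta 2 was high, TGFbeta 1 fell among or below the vehicle libraries, and the groups overlapped. The same held for all 7 genes: 0 were separated between treatments (15.5% of all tested genes lay above and 39.8% below), and the log2 changes of Psma1, Psma2, Psma5, Psma6 and Psma7 lay between 0.06 and 0.24. Psma8, the spermatocyte form that replaces Psma7, had 0.489 and 1.04 TPM with TGFbeta, against 0.437 and 0.246 TPM with vehicle. These values near 0 did not overlap, with TGFbeta 1 barely above vehicle 1. The gene missed the filter on mean level and was not tested, and made up 0.292% and 0.557% of the Psma7 and Psma8 total with TGFbeta, against 0.241% and 0.156% with vehicle.

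In the beta ring, Psmb5, Psmb6 and Psmb7 carry the proteolytic sites, of chymotrypsin-like, caspase-like and trypsin-like preference. Psmb5 (chromosome 14, 54614119 to 54618022, GRCm38) had 156 and 159 TPM with TGFbeta, against 157 and 142 TPM with vehicle, a log2 change of 0.08 with a 95% interval from -0.23 to 0.40 (limma adjusted p = 0.751). Psmb6 (chromosome 11, 70525367 to 70527858) had 218 and 235 TPM with TGFbeta, against 235 and 235 TPM with vehicle, a log2 change of -0.06 with an interval from -0.37 to 0.26 (limma adjusted p = 0.835). Psmb7 (chromosome 2, 38588036 to 38644087) had 109 and 132 TPM with TGFbeta, against 96.1 and 97.4 TPM with vehicle. Its groups did not overlap, and its log2 change of 0.30 had an interval from -0.05 to 0.66 (limma adjusted p = 0.264). The change was 0.17 without TGFbeta 2 and 0.44 without TGFbeta 1. For Psmb5 and Psmb6 the groups overlapped, and the intervals of all 3 leave out a change of 1 log2 unit in either direction.

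Of the other beta genes, Psmb2 varied little within groups, with 164 and 168 TPM with TGFbeta, against 127 and 127 TPM with vehicle. The log2 change was 0.38 (SE 0.12), short of the threshold after adjustment (unadjusted p = 0.0199, limma adjusted p = 0.126). Both TGFbeta libraries lay above both vehicle libraries, by more than replicates differed. Psmb3 and Psmb4 were also separated, by log2 changes of 0.10 and 0.08, and Psmb1 had a log2 change of -0.004 with overlapping groups. Psmb11, the beta subunit of thymic epithelium, was measured at 2.23 and 1.71 TPM with TGFbeta, against 2.28 and 2.07 TPM with vehicle, a log2 change of -0.10 (SE 0.22, limma adjusted p = 0.817). Its level was 1.40% and 1.06% of the Psmb5 and Psmb11 total with TGFbeta, against 1.44% and 1.44% with vehicle.

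The promoter windows of Psmb5 and Psmb6 are shown because both catalytic genes hold the core of the antioxidant response element, the sequence that Nfe2l1 and its relative Nfe2l2 bind. Each window runs from 250 bases before to 50 bases after the RefSeq start (GRCm38.p6), 5′ to 3′ along the gene, and capitals mark the match. Psmb5 is read from chr14:54617946-54618245 on the minus strand and Psmb6 from chr11:70525107-70525406 on the plus strand.
Psmb5: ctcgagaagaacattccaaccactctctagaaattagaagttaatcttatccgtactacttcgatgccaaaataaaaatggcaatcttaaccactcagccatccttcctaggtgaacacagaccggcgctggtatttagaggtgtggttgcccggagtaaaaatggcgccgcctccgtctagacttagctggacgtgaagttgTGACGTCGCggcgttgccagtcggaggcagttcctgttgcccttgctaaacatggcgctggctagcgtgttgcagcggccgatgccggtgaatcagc
Psmb6: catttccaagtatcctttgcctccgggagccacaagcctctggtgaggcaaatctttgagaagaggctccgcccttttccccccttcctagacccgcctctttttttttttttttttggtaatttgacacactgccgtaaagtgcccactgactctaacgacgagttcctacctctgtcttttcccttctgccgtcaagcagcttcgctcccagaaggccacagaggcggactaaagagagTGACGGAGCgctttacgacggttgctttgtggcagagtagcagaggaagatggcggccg

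The match began 47 bases before the start in Psmb5 and 9 bases before it in Psmb6. Searched on both strands as TGACNNNGC, this core was found in 6 of the 37 genes that had a window (16.2%), against 14.0% of all genes with one. The 6 genes were Psmb5, Psmb6, Psmc6, Psmd9, Psmd12 and Psme4. A CCAAT box (CCAAT) was found in 13 of 37 (35.1%, against 41.1%) and a GC box (GGGCGG) in 22 of 37 (59.5%, against 38.2%). The median GC content of the proteasome windows was 58.2%, against 52.7% of all windows. These matches describe letters in a window of 300 bases and not binding.

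The 6 ATPases of the cap, Psmc1 to Psmc6, form the ring that pulls substrates into the core. Psmc3 was the highest of them in every library, with 179 and 195 TPM with TGFbeta, against 206 and 200 TPM with vehicle. It was the 1 ATPase gene with both TGFbeta libraries below both vehicle libraries, at a log2 change of -0.12 (SE 0.13, limma adjusted p = 0.619), which turned to 0.03 after median scaling. Its exons overlap those of Slc39a13 on the other strand, which had 324 and 275 TPM with TGFbeta, against 327 and 367 TPM with vehicle. Psmc1 stood at the other end, with 126 and 152 TPM with TGFbeta, against 123 and 112 TPM with vehicle (log2 change 0.24, SE 0.15, limma adjusted p = 0.392; 0.10 without TGFbeta 2 and 0.37 without TGFbeta 1). Its groups did not overlap, and those of Psmc4 did not either (log2 change 0.10). Psmc2, Psmc5 and Psmc6 had log2 changes of 0.19, 0.03 and 0.20, with overlapping groups. The median level of the ring was 133 and 165 TPM with TGFbeta, against 141 and 131 TPM with vehicle, so that TGFbeta 2 alone stood apart.

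The 11 other cap subunits held 8 of the 16 genes with TGFbeta above vehicle. In Psmd1, Psmd2, Psmd3, Psmd7, Psmd8, Psmd11, Psmd12 and Psmd14 both TGFbeta libraries lay above both vehicle libraries, and in 0 of the 11 below (72.7% above, against 15.5% of all tested genes, and 0% below, against 39.8%). The median log2 change of the 11 genes was 0.18, and none passed the test. Psmd14, the enzyme that cuts ubiquitin chains off the substrate, had 96.2 and 143 TPM with TGFbeta, against 95.6 and 75.8 TPM with vehicle. TGFbeta 1 lay barely above vehicle 1 and TGFbeta 2 far above all others. Its log2 change was 0.46 (SE 0.22, limma adjusted p = 0.274), and it came to 0.17 without TGFbeta 2, 0.29 without vehicle 2 and 0.74 without TGFbeta 1. Psmd11, a scaffold subunit of the lid, was steadier, with 98.7 and 102 TPM with TGFbeta, against 81.1 and 74.2 TPM with vehicle (log2 change 0.36, SE 0.13, unadjusted p = 0.0298, limma adjusted p = 0.156). Psmd7, the inactive partner of Psmd14 in the lid, had 123 and 151 TPM with TGFbeta, against 110 and 99.0 TPM with vehicle (log2 change 0.38, SE 0.16, limma adjusted p = 0.204; 0.23 without TGFbeta 2).

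Levels among these 11 cap subunits were more uneven than in the core rings or the ATPase ring. Psmd8, a lid subunit, was the highest of the 11 in every library and of all 45 genes by mean, with 259 and 276 TPM with TGFbeta, against 247 and 238 TPM with vehicle. Psmd12, also of the lid, was the lowest of the 11 in every library, with 56.6 and 73.5 TPM with TGFbeta, against 55.1 and 51.7 TPM with vehicle. The ratio of the highest to the lowest mean was 4.30 in this group, against 2.13 in the alpha ring, 2.27 in the beta ring and 2.08 among the ATPases, with Psma8 and Psmb11 left out. Such a ratio tends to grow with the number of genes, here 11 against 7, 7 and 6. The large base scaffolds Psmd1 and Psmd2 had log2 changes of 0.24 and 0.16, and the lid genes Psmd3, Psmd6, Psmd8 and Psmd12 of 0.18, 0.09, 0.14 and 0.27. Psmd4, which encodes a ubiquitin receptor, had 159 and 206 TPM with TGFbeta, against 166 and 179 TPM with vehicle (log2 change 0.07). Psmd13 marked the lower end at -0.04 (SE 0.14, limma adjusted p = 0.904), with 105 and 115 TPM with TGFbeta, against 119 and 107 TPM with vehicle.

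**Figure D3:**
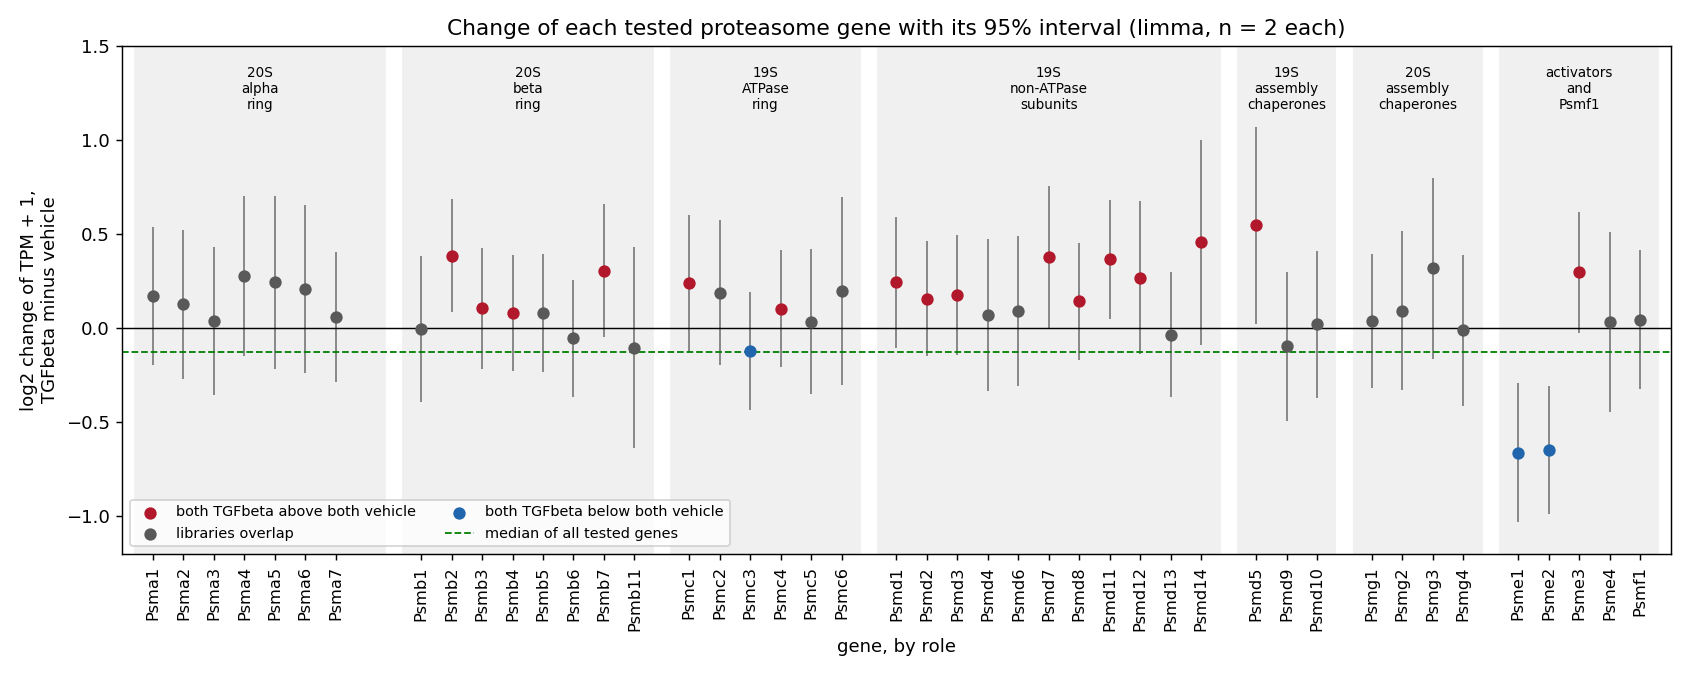
Log2 change (TGFbeta minus vehicle, log2 of TPM + 1) of the 44 tested genes with 95% intervals from limma, by role, coloured by whether the libraries of the groups overlap. The dashed line marks the median of all tested genes, -0.13. Psme1 and Psme2 lie near -0.66 and -0.65, apart from the other genes, which run from -0.12 to 0.54.

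Chaperones of assembly were measured at lower levels than the subunits they place. The 7 chaperone genes had a median of 25.6 and 31.0 TPM with TGFbeta, against 27.4 and 22.0 TPM with vehicle, whereas the 31 genes of core and cap without Psma8 and Psmb11 had 140 and 159 TPM with TGFbeta, against 135 and 127 TPM with vehicle. Psmd5, which holds ATPases until the base is complete, had the largest positive change of the 44 genes. Its levels were 45.9 and 53.5 TPM with TGFbeta, against 27.6 and 41.1 TPM with vehicle. The groups did not overlap, but the log2 difference of vehicle 1 minus vehicle 2 was -0.56, similar in size to the log2 change of 0.54 (SE 0.21, unadjusted p = 0.0434, limma adjusted p = 0.190). Without vehicle 1 the change was 0.27, and without vehicle 2 it was 0.82.

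Psmd9 and Psmd10, the other chaperones of the base, had log2 changes of -0.10 and 0.02. Psmd9 had 35.1 and 42.0 TPM with TGFbeta, against 38.0 and 44.5 TPM with vehicle, and its groups overlapped. Of the core chaperones, Psmg3 had 25.6 and 35.2 TPM with TGFbeta, against 25.9 and 22.0 TPM with vehicle (log2 change 0.32, SE 0.20, limma adjusted p = 0.382). That change was 0.096 without TGFbeta 2, 0.21 without vehicle 2 and 0.54 without TGFbeta 1. Psmg4, its partner in placing alpha subunits, had 16.1 and 19.4 TPM with TGFbeta, against 17.3 and 18.3 TPM with vehicle (log2 change -0.01, SE 0.16). Psmg1 and Psmg2, which pair with each other on the alpha ring, had log2 changes of 0.04 and 0.09. All 4 core chaperones overlapped between treatments, as did 7073 of all 15815 tested genes.

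Psme1 and Psme2 stood apart from the other proteasome genes. They encode the alpha and beta subunits of PA28, an activator ring that interferon gamma induces and that is linked to the making of peptides for antigen presentation. Psme1 (chromosome 14, 55578123 to 55581529) had 85.5 and 107 TPM with TGFbeta, against 152 and 151 TPM with vehicle. Psme2 (chromosome 14, 55587441 to 55591113) had 106 and 116 TPM with TGFbeta, against 163 and 186 TPM with vehicle. For both genes each TGFbeta library lay below each vehicle library. The mean of Psme1 was 96.0 ± 14.9 TPM with TGFbeta and 152 ± 0.815 TPM with vehicle (SD, n = 2 each), a ratio of 0.633. That of Psme2 was 111 ± 7.59 TPM with TGFbeta and 175 ± 16.2 TPM with vehicle (SD, n = 2 each), a ratio of 0.635.

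Neither gene passed the test, by a narrow margin. The log2 change of Psme1 was -0.66 (95% interval -1.03 to -0.29, unadjusted p = 0.00454, limma adjusted p = 0.0608) and that of Psme2 was -0.65 (95% interval -0.99 to -0.31, unadjusted p = 0.00332, limma adjusted p = 0.0529). Both were called lower under 3 of 14 alternatives: with a mean TPM of at least 5, with protein-coding genes alone, and with a robust fit (limma adjusted p = 0.0318, 0.0263 and 0.0459 for Psme1, and 0.0282, 0.0263 and 0.0405 for Psme2). Over all settings the adjusted p ran from 0.0263 to 0.281 for Psme1 and from 0.0263 to 0.280 for Psme2. Within a library, Psme1 stood at 0.533 and 0.578 of the median level of 14 core genes (Psma1 to Psma7 and Psmb1 to Psmb7) with TGFbeta, against 0.947 and 1.02 with vehicle. Psme2 stood at 0.658 and 0.631 of it with TGFbeta, against 1.02 and 1.26 with vehicle. The level of Psme1 over that of Psme2 was 0.810 and 0.916 with TGFbeta, against 0.933 and 0.811 with vehicle, so that the ratio between the PA28 partners overlapped between treatments.

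Some measured facts bear on these values. Exons of Psme1 overlap those of Emc9 on the other strand, and Emc9 had 36.4 and 40.5 TPM with TGFbeta, against 53.8 and 57.3 TPM with vehicle. The strand setting is not given in the sources used here, so reads of these genes cannot be told apart where they overlap. Psme2 has a near-identical copy, Psme2b, with 12.4 and 10.0 TPM with TGFbeta, against 10.5 and 6.83 TPM with vehicle. Psme2 and Psme2b together had 118 and 126 TPM with TGFbeta, against 174 and 193 TPM with vehicle. Leukocyte and macrophage markers, of which 6 of 8 had a mean TPM of at least 1, summed to 59.4 and 64.8 TPM with TGFbeta, against 73.4 and 90.2 TPM with vehicle. Most of this sum was Lyz2, with 42.9 and 48.1 TPM with TGFbeta, against 55.3 and 66.4 TPM with vehicle, while the pan-leukocyte marker Ptprc had 1.07 and 1.35 TPM with TGFbeta, against 1.35 and 1.05 TPM with vehicle. Endothelial markers (5 of 6 at a mean of at least 1) summed to 21.6 and 22.7 TPM with TGFbeta, against 24.9 and 29.3 TPM with vehicle, and cardiomyocyte markers (2 of 7) to 43.9 and 43.1 TPM with TGFbeta, against 55.3 and 94.2 TPM with vehicle. Tnnt2 made up most of the cardiomyocyte sum, with 35.2 and 34.6 TPM with TGFbeta, against 47.0 and 81.4 TPM with vehicle. Other cardiomyocyte markers were low in every library: Myh6, Actc1 and Ttn lay at 0.395 TPM or less, Ryr2 at 0.833 TPM or less and Myl2 at 1.10 TPM or less. Nppa lay at 10.6 TPM or less. Pericyte and smooth muscle markers (4 of 6) lay the other way, with 357 and 330 TPM with TGFbeta, against 305 and 312 TPM with vehicle. Most of this sum was Pdgfrb, with 327 and 294 TPM with TGFbeta, against 285 and 294 TPM with vehicle. The part of these cell types in the lower values of Psme1 and Psme2 was not tested.

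The promoter windows of both PA28 genes are shown because these genes had the lowest log2 changes of the 44. Capitals mark the core of the interferon-stimulated response element, searched on both strands as GAAA, any 2 bases and GAAA again. The Psme1 window is chr14:55578244-55578543 on the plus strand, and the Psme2 window, the first of 2 that RefSeq gives, is chr14:55591052-55591351 on the minus strand.
Psme1: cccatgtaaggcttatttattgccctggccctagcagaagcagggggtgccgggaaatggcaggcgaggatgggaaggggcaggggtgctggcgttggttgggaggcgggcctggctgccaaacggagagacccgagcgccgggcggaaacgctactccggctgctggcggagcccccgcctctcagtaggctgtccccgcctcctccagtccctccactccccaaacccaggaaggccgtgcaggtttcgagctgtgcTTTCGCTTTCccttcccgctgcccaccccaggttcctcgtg
Psme2: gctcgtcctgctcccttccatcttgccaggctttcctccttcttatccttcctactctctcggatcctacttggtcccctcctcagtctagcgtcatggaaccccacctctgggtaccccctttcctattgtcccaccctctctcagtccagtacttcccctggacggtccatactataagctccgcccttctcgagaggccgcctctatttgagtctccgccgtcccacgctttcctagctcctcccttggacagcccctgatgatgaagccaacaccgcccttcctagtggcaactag

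Psme1 holds the match, on the reverse strand, from base 10 of the transcript, while neither Psme2 window holds these letters. Among the proteasome genes with a window the core was found in 5 of 37 (13.5%, against 3.99% of all genes with one), which were Psmb3, Psmd4, Psmd9, Psme1 and Psmg4. It was found in 0 of the 3 genes Psmb8, Psmb9 and Psmb10, each of which had a window.

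The other activators did not share these values. Psme3, which encodes the nuclear PA28 gamma ring, had 83.2 and 87.6 TPM with TGFbeta, against 72.9 and 66.0 TPM with vehicle. Its groups did not overlap in the positive direction (log2 change 0.30, SE 0.13, limma adjusted p = 0.237). Psme4, the gene of the PA200 activator, had 50.9 and 65.9 TPM with TGFbeta, against 64.8 and 49.5 TPM with vehicle (log2 change 0.03). Psmf1, which encodes a regulator that binds the core, had 29.3 and 25.8 TPM with TGFbeta, against 28.1 and 25.2 TPM with vehicle (log2 change 0.04).

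The inducible catalytic subunits Psmb8, Psmb9 and Psmb10 take the places of Psmb5, Psmb6 and Psmb7 in the immunoproteasome. Psmb8 fell, with 7.84 and 5.55 TPM with TGFbeta, against 26.4 and 26.4 TPM with vehicle (log2 change -1.85, limma adjusted p = 0.0107). It was called under 11 of the 14 alternatives, with adjusted p-values by limma from 0.000762 to 0.128 over all settings, and not with every gene above 0, without vehicle 1 (adjusted p = 0.0916) or without vehicle 2 (0.128). Psmb9 had 2.67 and 2.68 TPM with TGFbeta, against 5.73 and 9.42 TPM with vehicle (limma adjusted p = 0.0536). Psmb10 had 50.1 and 41.3 TPM with TGFbeta, against 78.3 and 67.1 TPM with vehicle (limma adjusted p = 0.0695). As a share of its pair, Psmb8 made up 4.77% and 3.37% with TGFbeta, against 14.4% and 15.7% with vehicle, and Psmb9 made up 1.21% and 1.13% with TGFbeta, against 2.38% and 3.85% with vehicle. Psmb10 made up 31.5% and 23.9% of its pair with TGFbeta, against 44.9% and 40.8% with vehicle. In all 3 pairs the constitutive member was the higher in every library, and the inducible share was lower in both TGFbeta libraries than in both vehicle libraries. No background was computed for such shares. In TPM all 3 inducible genes had both TGFbeta libraries below both vehicle libraries, against 39.8% of all tested genes. The limma call of Psmb8 stood beside 4.38% of all tested genes called lower.

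**Figure D4:**
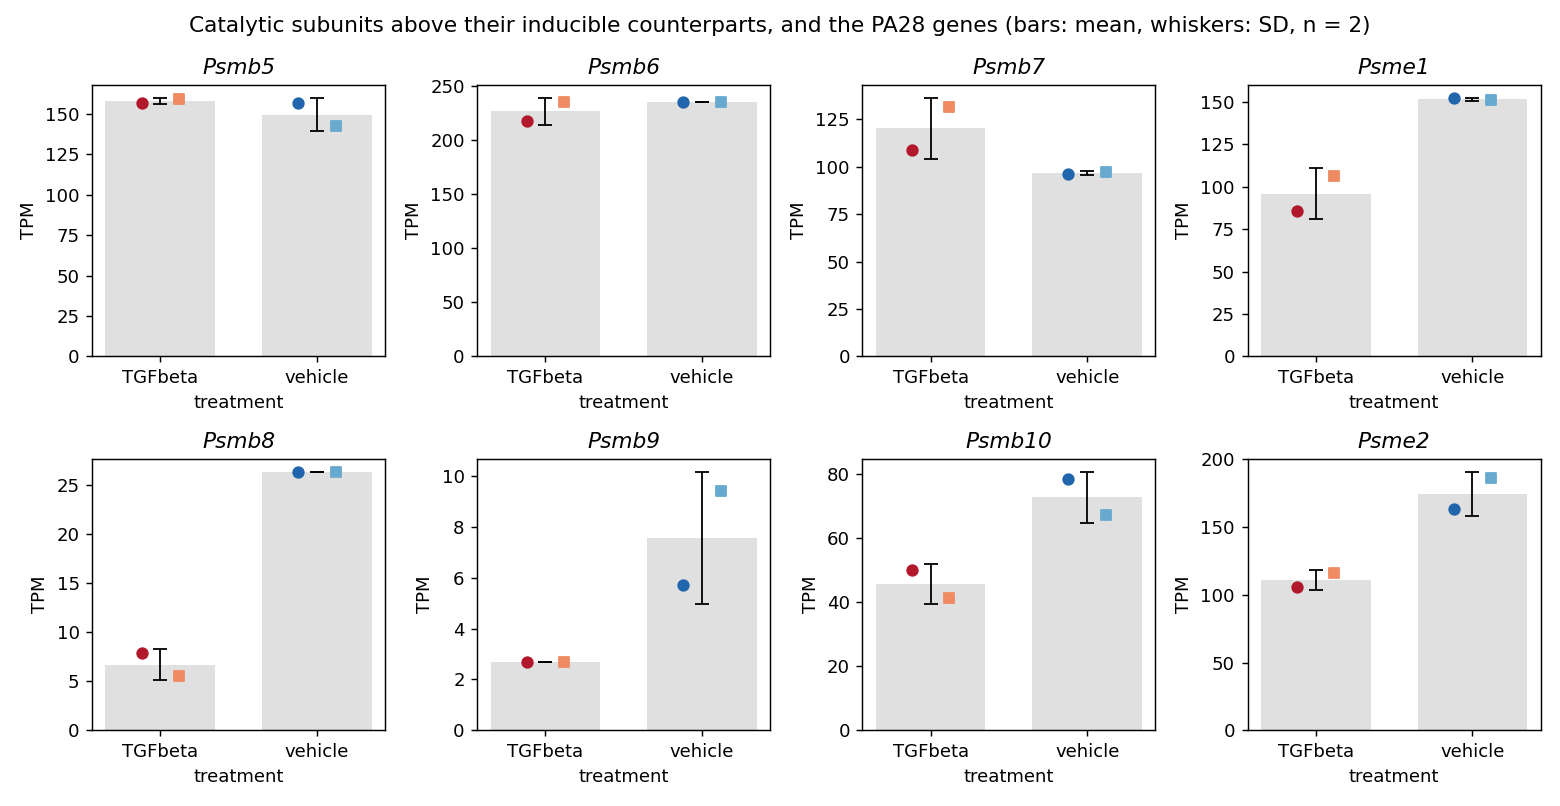
TPM of the catalytic subunits Psmb5, Psmb6 and Psmb7, of their inducible counterparts Psmb8, Psmb9 and Psmb10 below them, and of Psme1 and Psme2, for TGFbeta and vehicle. Points are libraries (circle replicate 1, square replicate 2), bars the mean and whiskers the SD over 2 libraries. Psmb8 lies at 5.55 to 7.84 TPM with TGFbeta and at 26.4 TPM with vehicle, while Psmb5 overlaps.

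Proteasome genes under other symbols gave no call. Of 5 such genes 0 were called higher and 0 lower by limma (0 at an unadjusted p under 0.05). Over all tested genes these shares were 1.54%, 4.38% and 24.5%, so a list of 5 says little. The median log2 change was -0.18, beside -0.13 for all tested genes. Adrm1, the gene of a ubiquitin receptor of the cap, had 135 and 122 TPM with TGFbeta, against 124 and 131 TPM with vehicle. Sem1, a small lid subunit gene, had 44.4 and 60.1 TPM with TGFbeta, against 59.0 and 58.7 TPM with vehicle. Pomp, a chaperone of core maturation, had 95.3 and 67.5 TPM with TGFbeta, against 112 and 89.4 TPM with vehicle. All 3 overlapped between treatments, as did 7073 of all 15815 tested genes.

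Among 19 shuttles and ubiquitin enzymes that work at the proteasome, 1 rose and 0 fell (3 at an unadjusted p under 0.05), beside 1.54% and 4.38% of all tested genes, and the median log2 change was 0.16. Both TGFbeta libraries lay above both vehicle libraries for 47.4% of the 19 and below for 0%, against 15.5% and 39.8% of all tested genes. The gene that rose was Ubqln2, which encodes a shuttle for ubiquitylated proteins, with 35.8 and 33.5 TPM with TGFbeta, against 20.5 and 17.1 TPM with vehicle (log2 change 0.85, limma adjusted p = 0.0386). The call held under 7 of the 14 alternatives and was lost without any 1 of the 4 libraries (limma adjusted p = 0.0102 to 0.218 over all settings). Of 6 genes for ubiquitin and its activating enzymes, and of 13 for transcription factors and their regulators, none was called (0 and 2 at an unadjusted p under 0.05), with medians of 0.13 and -0.07. Nfe2l1 had 306 and 282 TPM with TGFbeta, against 236 and 219 TPM with vehicle, so that its groups did not overlap (log2 change 0.37, limma adjusted p = 0.157). Nfe2l2 had 50.5 and 61.5 TPM with TGFbeta, against 74.1 and 65.2 TPM with vehicle, the other direction (log2 change -0.31, limma adjusted p = 0.283). Foxo4, a forkhead transcription factor and the gene of the 13 with the smallest p, lay in the direction of Nfe2l2, with 15.4 and 15.1 TPM with TGFbeta, against 24.3 and 27.3 TPM with vehicle, and missed the threshold (log2 change -0.71, limma adjusted p = 0.0505).

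Other large complexes were set beside these genes. The COP9 signalosome and the eIF3 complex share an architecture with the lid, and the CCT chaperonin is another ring of fixed subunits. None of their 10, 14 and 7 tested genes was called (0, 2 and 0 at an unadjusted p under 0.05), beside 1.54% of all tested genes called higher and 4.38% lower. Both TGFbeta libraries lay above both vehicle libraries for 0 COP9 genes, 6 eIF3 genes (42.9%) and 2 CCT genes (28.6%). The share was 36.4% for the proteasome genes (16 of 44) and 15.5% for all tested genes. Both lay below for 2 COP9 genes (20.0%), 2 eIF3 genes (14.3%) and 0 CCT genes. Here the share was 6.82% for the proteasome genes (3 of 44) and 39.8% for all tested genes. The median log2 changes of the COP9, eIF3 and CCT genes were -0.06, 0.07 and 0.09, beside 0.18 for the 17 cap genes and 0.10 for the 15 tested core genes.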

How the data were processed

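Sequencing gave RNA levels for mouse cardiac fibroblasts, 2 libraries with TGFbeta and 2 with vehicle. Per the file headers, the authors deposited TPM per gene symbol, and each library was checked to sum to 1000000. Which aligner, quantifier, strand setting, build and annotation were used is not given in the sources used here. Because TPM keeps no read numbers, depth is unknown and counting intervals are left out.

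Genes whose mean over the 4 libraries reached 1 TPM were compared as log2(TPM + 1) with limma 3.58.1 in R 4.3.3 (lmFit, eBayes with an intensity trend, two-sided, treatment as the only term), with Benjamini-Hochberg adjustment over all 15815 tested genes and a threshold of 0.05. Fold changes on this scale understate those of low genes. The procedure was run on simulated data with planted changes larger than any fitted for a proteasome gene. That run does not show how often changes of the size seen here would be called. Positions and biotypes come from GENCODE M21 (GRCm38), which matched 32159 of 33641 symbols. Near-identical copies were sought with blastn 2.17.0 (at least 95% identity over at least 50% of the longest coding transcript). They were found for 8 of the 45 genes (Psma4, Psma5, Psmb3, Psmb5, Psmc1, Psmd2, Psmd11 and Psme2), and exons of 7 overlap those of another measured gene (Psma4, Psmb7, Psmc3, Psmd1, Psmd13, Psme1 and Psmg3), so the values of these genes are less certain. Promoter sequences are from RefSeq (GRCm38.p6), with a window for 37 of the 45 genes.

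Members and gene lists were chosen with earlier results of these data known. The rule gave values per library for Psmb5, Psmb6 and Psmb7, for called genes, for the ends of each role group and for genes under 1 TPM. Values of Psma8 aside, those of Psme2, Psme4, Psmf1, Psmd4, Psmd7, Psmd8, Psmd11 and Psmd12, and of Emc9, Slc39a13, Psme2b, Foxo4, Lyz2 and Tnnt2, were added after they were seen. The same holds for the single markers Pdgfra, Tcf21, Col1a1, Pdgfrb, Myh6, Actc1, Ttn, Ryr2, Myl2 and Nppa. A set of 14 alternative settings changed the pseudocount, filter, scaling, variance model, replicate block or set of libraries, and 3 scalings of the counts of separated genes and of small changes, and all 14 settings for Psmb8 and Ubqln2, were added after seeing the data.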

Additional observations from a re-analysis of the deposited data

How the results depend on the processing

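No proteasome gene was called higher under any of the 14 alternatives, and 2 (Psme1 and Psme2) were called lower with a mean TPM of at least 5, with protein-coding genes alone and in the robust fit. Over all genes, where 244 were higher and 692 lower, the counts were 0 and 0 with every gene above 0 (4348 at an unadjusted p under 0.05), 421 and 401 after median scaling, 484 and 1175 with protein-coding genes alone, and 401 lower after quantile normalization, 437 without an intensity trend and 445 with the replicate block. Leaving out 1 library gave 0 to 101 higher and 0 to 243 lower, with 0 without vehicle 1 and without vehicle 2 (3045 and 2402 at an unadjusted p under 0.05), where a lone library was taken to vary as the pair it was set against. The cause of these losses was not tested. The replicate block changed no call of a proteasome gene and ended that of Ubqln2 (limma adjusted p = 0.0632). The labels state no pairing of replicates by number. Deviations from the group mean in TGFbeta 1 and vehicle 1 had a correlation of -0.0539. With 2 libraries per group, the deviations of replicate 2 mirror those of replicate 1. This single value therefore cannot tell if replicates were paired. The all-gene median log2 change was 0.015 under quantile normalization, and 0.027 under median scaling. Proteasome genes with both TGFbeta libraries above both vehicle libraries numbered 35 with median scaling and 28 with quantile normalization, and those with an absolute log2 change under 0.25 numbered 19 with median scaling.

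The sign of the log2 change held under all 14 alternatives for 24 of 44 genes, 22 positive and 2 negative (Psme1 and Psme2). Changes of filter, variance model and replicate block leave the fitted log2 change as it is and could not turn a sign. Only the pseudocounts, the scalings and the fits with 1 library left out could do so. The matching share of all tested genes is not given. It turned positive after median scaling for Psmb1 (0.151), Psmb6 (0.099), Psmb11 (0.051), Psmc3 (0.034), Psmd9 (0.056), Psmd13 (0.119) and Psmg4 (0.143), after quantile normalization for Psmb1 (0.053), Psmb11 (0.056), Psmd9 (0.043), Psmd13 (0.06) and Psmg4 (0.143), and with protein-coding genes alone for Psmb1 (0.028) and Psmg4 (0.018). With 1 library left out, it ran from -0.042 to 0.295 for Psma2, -0.139 to 0.211 for Psma3, -0.022 to 0.437 for Psma6, -0.037 to 0.155 for Psma7, -0.161 to 0.154 for Psmb1, -0.111 to 0.001 for Psmb6 and -0.229 to 0.022 for Psmb11. It ran from -0.136 to 0.204 for Psmc5, -0.03 to 0.423 for Psmc6, -0.117 to 0.254 for Psmd4, -0.091 to 0.269 for Psmd6, -0.224 to 0.027 for Psmd9, -0.075 to 0.116 for Psmd10 and -0.111 to 0.041 for Psmd13. For Psme4 it ran from -0.159 to 0.223, for Psmf1 -0.045 to 0.134, for Psmg1 -0.043 to 0.119, for Psmg2 -0.091 to 0.273 and for Psmg4 -0.139 to 0.115.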
